A study of Caenorhabditis elegans with 2 samples.

Results

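Transfer RNA (tRNA) genes on the X chromosome were examined for regions recovered with SNAI-1, the Snail-family zinc-finger protein encoded by K02D7.2, in embryos of the nematode Caenorhabditis elegans. All nuclear genes of biotype tRNA that the Ensembl annotation of WBcel235 (the assembly also called ce11) places on X were taken, which gave 276 of 612 nuclear tRNA genes. The annotation holds 46890 nuclear genes of all kinds. The choice of members used position and biotype and no measured value. Chromatin immunoprecipitation followed by sequencing (ChIP-seq) had been done on 1 group of 2 biological replicates. They were late embryos of strain OP698, genotype unc-119(tm4063) III; wgIs698, of mixed sex, taken 5 hours after egg bleaching, which synchronized them. The insertion wgIs698 encodes K02D7.2 with a C-terminal GFP tag, and an antibody against GFP was used on whole embryos, so that all cell types were pooled. The series has no second genotype, stage or treatment, and libraries of worms without the tag were not analysed here.

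The deposited lists give regions, each with a summit and a signal, and no read counts, so the depth of the libraries is unknown. Each gene was given the strongest region with its summit inside the gene or within 100 bp of it, in the pooled list of 30000 candidate regions and in the list of the same length of each replicate. A gene is said below to have an IDR summit when such a region was also among the 495 that passed the authors' filter on the irreproducible discovery rate (IDR), a measure of how well ranks repeat between replicates. Genes with a region in the pooled list alone are called candidate only, and the rest had no candidate. These were the 495 strongest regions of the pooled list, with none under 114.7, so a high signal in genes with an IDR summit restates how that list was made. Signal is the authors' value for a region, in units that the sources do not name, and is compared here within 1 list only.

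Transfer RNAs carry amino acids to the ribosome, and an isotype is the set of tRNAs for 1 amino acid. Their genes are transcribed by RNA polymerase III from promoters that lie inside the gene, at short blocks named the A box and the B box. The factor TFIIIC binds these blocks and places TFIIIB just before the transcription start, and a run of T residues after the gene ends transcription. Snail-family proteins are known mainly as repressors of protein-coding genes that bind the E-box letters CAGGTG. Many tRNA genes exist in identical copies, so that copies with the same internal promoter can be compared at different places on the chromosome.

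Example sequences are shown first. C06G1.t1 and C49F5.t1 carry the same histidine tRNA gene on the minus strand of X, and a region was found at C06G1.t1 alone (IDR summit, pooled signal 344.6). The gene, at chrX:16634830-16634901 for C06G1.t1 and chrX:11993521-11993592 for C49F5.t1, is given with the B-box letters GTTCGANNC in capitals. The 100 bp before each copy are given with every CTCTC in capitals, a word described further down. All are read 5′ to 3′ on the strand of the gene from the RefSeq sequence of WBcel235.
C06G1.t1 and C49F5.t1, gene: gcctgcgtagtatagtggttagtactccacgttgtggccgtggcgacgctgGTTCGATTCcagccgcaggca
C06G1.t1, before the gene, chrX:16634902-16635001: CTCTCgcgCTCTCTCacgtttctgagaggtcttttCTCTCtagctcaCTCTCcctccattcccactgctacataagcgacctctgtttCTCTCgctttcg
C49F5.t1, before the gene, chrX:11993593-11993692: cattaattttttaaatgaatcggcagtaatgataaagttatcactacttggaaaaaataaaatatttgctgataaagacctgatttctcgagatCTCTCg
The windows differ in GC content, which is 52% before C06G1.t1 and 29% before C49F5.t1, where the word CTCTC also occurs. The strongest member, the leucine gene C04A11.t1 on the plus strand, is shown with F08F1.t3, a leucine gene on the minus strand with no candidate. C04A11.t1 has 2 exons and is the sole nuclear gene of its sequence. The pair differs inside the gene too, since F08F1.t3 (chrX:8409296-8409377) is 1 of 2 X tRNA genes of 276 without the A-box pattern described further down.
C04A11.t1, gene, chrX:13665555-13665673: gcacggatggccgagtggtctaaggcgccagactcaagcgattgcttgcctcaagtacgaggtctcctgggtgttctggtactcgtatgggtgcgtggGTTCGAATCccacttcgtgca
C04A11.t1, before the gene, chrX:13665455-13665554: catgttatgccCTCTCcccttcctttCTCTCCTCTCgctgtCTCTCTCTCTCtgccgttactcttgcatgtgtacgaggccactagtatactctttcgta
F08F1.t3, gene: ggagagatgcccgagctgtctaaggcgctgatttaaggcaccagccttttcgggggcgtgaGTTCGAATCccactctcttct
F08F1.t3, before the gene, chrX:8409378-8409477: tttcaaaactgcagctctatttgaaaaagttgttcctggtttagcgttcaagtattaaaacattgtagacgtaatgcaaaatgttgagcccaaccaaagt
Here the GC content is 50% before C04A11.t1 and 35% before F08F1.t3.

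The alanine genes F15G9.t1 on the plus strand and T07H6.t2 on the minus strand share 1 gene sequence and both had an IDR summit. They are set beside C56G3.t1, an alanine gene on the minus strand with no candidate, whose B box matches only the looser letters GTTCNANNC.
F15G9.t1 and T07H6.t2, gene, chrX:9743589-9743660 and chrX:6292278-6292349: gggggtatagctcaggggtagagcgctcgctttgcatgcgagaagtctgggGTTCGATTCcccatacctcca
C56G3.t1, gene, chrX:7378784-7378855: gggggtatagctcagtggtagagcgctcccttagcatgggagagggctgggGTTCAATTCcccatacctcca
F15G9.t1, before the gene, chrX:9743489-9743588: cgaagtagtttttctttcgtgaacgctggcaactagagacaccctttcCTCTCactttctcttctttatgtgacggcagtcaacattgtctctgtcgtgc
T07H6.t2, before the gene, chrX:6292350-6292449: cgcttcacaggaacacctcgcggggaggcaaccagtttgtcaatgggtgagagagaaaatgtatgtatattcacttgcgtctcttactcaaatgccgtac
C56G3.t1, before the gene, chrX:7378856-7378955: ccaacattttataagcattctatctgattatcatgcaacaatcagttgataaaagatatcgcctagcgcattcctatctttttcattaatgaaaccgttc
The window before T07H6.t2 holds the word only on the other strand. GC content is 46% before F15G9.t1 and 48% before T07H6.t2, against 33% before C56G3.t1. For valine, R04D3.t2 on the plus strand (IDR summit) and F35A5.t1 on the minus strand (no candidate) are closer, at 47% and 43%.
R04D3.t2, before the gene, chrX:13306934-13307033: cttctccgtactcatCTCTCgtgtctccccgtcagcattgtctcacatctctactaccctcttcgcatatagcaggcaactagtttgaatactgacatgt
F35A5.t1, before the gene, chrX:3793637-3793736: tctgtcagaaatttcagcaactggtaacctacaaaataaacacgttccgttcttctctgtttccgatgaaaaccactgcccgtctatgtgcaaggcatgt
The genes with an IDR summit shown here are 5 of the 12 members with the highest pooled signal. Members with an identical copy on a chromosome whose sequence is not printed were left out. Of those left out, F38G1.t2 had 36% GC before the gene, M02F4.t1 40%, C42D8.t1 41% and C28G1.t1 43%. F41D9.t3 had 50%, F17H10.t1 51% and W03G11.t1 53%. The genes without a candidate are the first along X of the same sequence or isotype.

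Regions recovered with SNAI-1 lay at about as many X tRNA genes as not, and the strongest of them stood among the strongest regions of the genome. Of the 276 X tRNA genes, 65 had an IDR summit (23.6%, exact 95% binomial interval 18.7 to 29.0%), against 1.27% of all nuclear genes. A further 67 were candidate only (24.3%) and 144 had no candidate (52.2%). A pooled candidate of either kind lay at 132 (47.8%), against 25.8% of all nuclear genes. The intervals treat genes as independent, although all genes share the same libraries, and they do not include variation between replicates.

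The 65 genes with an IDR summit were served by 64 regions, out of 93 IDR regions on X. Among the 50 strongest regions of the pooled list 10 lay at X tRNA genes, among the 100 strongest 20, and among the 200 strongest 42. X as a whole held 12, 23 and 49 of these, so most of the strongest X regions lay at tRNA genes. The pooled signal of genes with an IDR summit ran from 116.0 to 540.9 with a median of 194.5 (ranks 8 to 479). Candidate-only genes ran from 33.0 to 113.3 with a median of 63.2 (ranks 520 to 29863). The median over all 30000 pooled regions was 44.97.

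Autosomal tRNA genes differed little from those on X in the share with an IDR summit. On the autosomes 65 of 336 tRNA genes had one (19.3%, interval 15.3 to 24.0%), and the interval overlaps that of X. Candidates of either kind were found at 47.8% of X tRNA genes and 55.1% of autosomal ones. Among genes with any candidate, 65 of 132 on X (49.2%, 40.4 to 58.1%) and 65 of 185 on the autosomes (35.1%, 28.3 to 42.5%) had an IDR summit. The median signal of genes with an IDR summit was 194.5 on X and 165.9 on the autosomes, and the highest signals were 540.9 on X and 376.1 on the autosomes. No test was made, since genes of 1 list are not replicates.

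Other gene kinds on X had few IDR summits by the same rule. None of 33 snoRNA genes, 3 snRNA genes, 74 microRNA genes or 162 piRNA genes on X had one. Pooled candidates lay at 4 of those snoRNA genes, 7 of the microRNA genes and 6 of the piRNA genes. Protein-coding genes on X had an IDR summit within 100 bp in 31 of 2731 cases (1.14%) and a candidate in 44.2%. Genes that the annotation calls ncRNA had one in 56 of 2520 cases (2.22%), and a region can lie near genes of more than 1 kind. A count of 0 of 33 allows a share of up to 9.09% and a count of 0 of 74 a share of up to 4.05%, by counting error alone.

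Both replicates recovered most of the same genes. In replicate 1 a region lay at 123 of the X tRNA genes, and in replicate 2 at 138. No region was found in the pooled list or in either replicate's list at 119 genes. The 495 strongest regions of replicate 1 reached 62 genes (22.5%, against 1.21% of all nuclear genes) and those of replicate 2 reached 63 (22.8%, against 1.28%). Both reached 52 of the 65 genes with an IDR summit (80%), against 43 of the 65 such genes on the autosomes (66.2%). Over the 110 X tRNA genes with a region in both replicates, Spearman's rho of the ranks was 0.83 (autosomes 0.77 over 140 genes). This value runs across genes that share their libraries and is a description only.

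**Figure D1:**
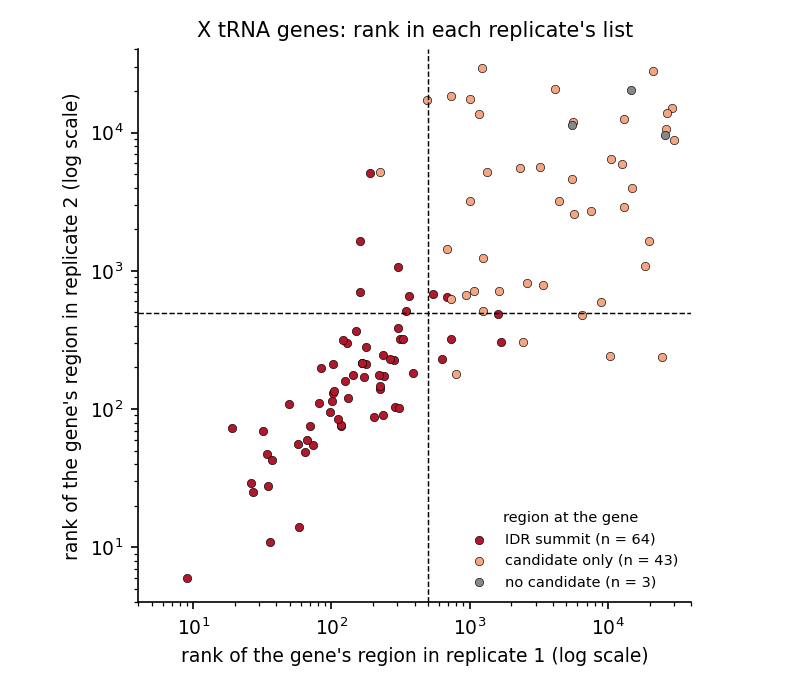
Rank of each X tRNA gene's region in replicate 1 (x axis) and replicate 2 (y axis), both on a log scale with rank 1 the strongest, for the 110 genes with a region in both. Points are single genes coloured by class, and dashed lines mark rank 495. Genes with an IDR summit gather at the lower left, with a few beyond rank 1000 in 1 replicate.

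A small number of genes with an IDR summit rested mainly on 1 replicate. C03B1.t1, the only tryptophan gene with an IDR summit, had a signal of 95.5 (rank 191) in replicate 1 and 33.2 (rank 5116) in replicate 2. T14F9.t1, an aspartate gene, had rank 161 in replicate 1 but 1652 in replicate 2. Ranks for the isoleucine gene C29F7.t3 were 162 and 701. In the other direction F14B8.t1 (leucine) ranked 1682 in replicate 1 and 305 in replicate 2, and T08A9.t1 (alanine) ranked 1605 and 488. F59C12.t3, a valine gene, ranked 216 in replicate 1 and had no region in replicate 2, and it was named after its values were seen. The median rank of the genes with an IDR summit was 161 in replicate 1 (65 genes) and 164.5 in replicate 2 (64 genes).

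The 12 strongest members covered 10 isotypes, with 2 alanine genes and 2 glycine genes among them. C04A11.t1, the leucine gene shown above, had a signal of 261.1 (rank 9) in replicate 1, 285.1 (rank 6) in replicate 2 and 540.9 (rank 8) in the pooled list. F41D9.t3, an asparagine gene in an intron of sulp-3, had 179.4 (rank 36) in replicate 1, 229.1 (rank 11) in replicate 2 and 418.2 (rank 15) in the pooled list. C42D8.t1, an isoleucine gene outside protein-coding genes, had 194.3 (rank 27) in replicate 1, 183.0 (rank 25) in replicate 2 and 374.3 (rank 27) pooled. Only C04A11.t1 was among the 10 strongest regions of each list.
The alanine gene F15G9.t1, in an intron of the hemicentin gene him-4, had 155.0 (rank 58) in replicate 1, 215.4 (rank 14) in replicate 2 and 370.6 (rank 29) pooled. C28G1.t1, a glutamate gene that overlaps an exon of C28G1.2, had 194.9 (rank 26), 175.1 (rank 29) and 370.0 (rank 30) in the same 3 lists. The glycine gene M02F4.t1 had 179.9 (rank 35), 177.8 (rank 28) and 351.2 (rank 33). Replicates stood within 10 ranks of each other for C28G1.t1 and M02F4.t1 and further apart for F15G9.t1.
C06G1.t1, the histidine gene shown above, lies in an intron of C06G1.1 and had 223.1 (rank 19) in replicate 1, 127.8 (rank 73) in replicate 2 and 344.6 (rank 37) pooled. F38G1.t2, an aspartate gene in an intron of egl-17, which encodes a fibroblast growth factor, had 181.8 (rank 34), 151.5 (rank 47) and 342.7 (rank 38). The lysine gene W03G11.t1 had 178.3 (rank 37), 157.1 (rank 43) and 335.8 (rank 44). All 3 ranked higher in replicate 1 than in replicate 2.
T07H6.t2, the second alanine gene shown, had 185.5 (rank 32) in replicate 1, 128.7 (rank 70) in replicate 2 and 314.7 (rank 49) pooled. F17H10.t1, a glycine gene in an intron of the sorting nexin gene snx-17, had 158.5 (rank 57), 141.6 (rank 56) and 307.0 (rank 53). The valine gene R04D3.t2 had 149.2 (rank 64), 148.4 (rank 49) and 295.9 (rank 56). Each of these 12 genes was among the 100 strongest regions of both replicates.

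Most of the summits counted, which by the rule lie in the gene or within 100 bp of it, sat on the gene body. Among the genes with an IDR summit the summit lay inside the gene in 47, before it in 14 and after it in 4, at a median of 22 bp from the 5′ end (interquartile range 6 to 47 bp). The genes had a median length of 72 bp. For candidate-only genes 37 summits lay inside, 13 before and 17 after, at a median of 47 bp (12 to 77 bp). On the autosomes the median for genes with an IDR summit was 32 bp (5 to 62 bp).

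Every named isotype was represented. All 276 members were matched to RefSeq by gene ID, which names 20 isotypes on X and leaves 3 genes without one. Each of the 20 had at least 1 gene with an IDR summit, and none of the 3 unnamed genes had a candidate. Alanine had the highest share, with 6 of 13 genes, followed by tyrosine with 3 of 8, leucine with 6 of 17, and asparagine and phenylalanine with 2 of 6 each. Glutamate had the most genes with an IDR summit, 7 of 23, followed by glycine with 6 of 20, and serine had 5 of 18. Lysine and histidine had the lowest shares, with 2 of 18 and 1 of 9. The other isotypes lay between these, among them arginine, the most numerous on X, with 4 of 27, proline with 4 of 20 and glutamine with 2 of 15. With so few genes per isotype these shares are not told apart, and their order on the autosomes was another (tyrosine 3 of 8 on X and 1 of 11 on the autosomes, lysine 2 of 18 on X and 6 of 28 on the autosomes).

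**Figure D2:**
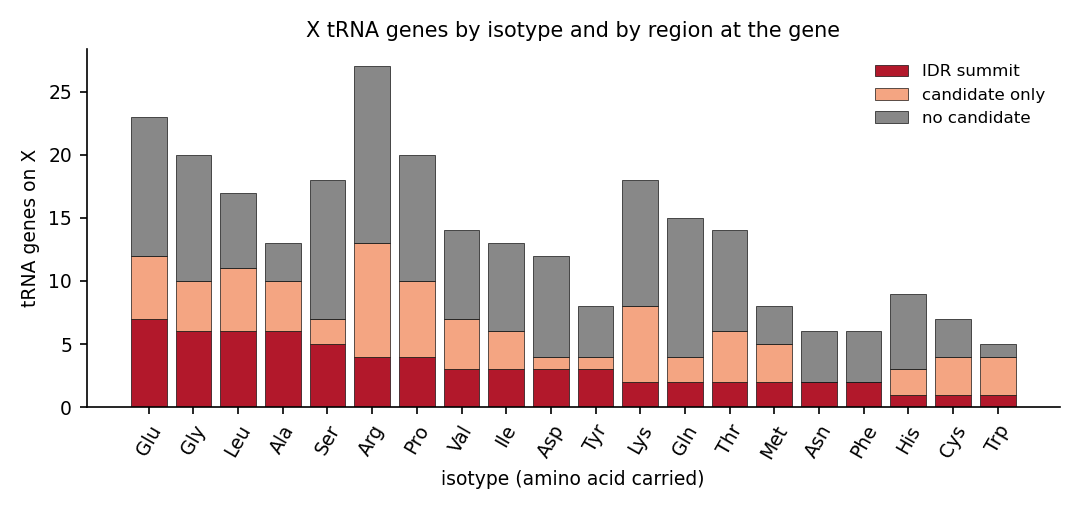
Number of tRNA genes on X (y axis) for each isotype (x axis), stacked as genes with an IDR summit, candidate-only genes and genes with no candidate. Every named isotype has genes of the first kind, from 1 for histidine, cysteine and tryptophan to 7 for glutamate.

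The strongest gene of each remaining isotype spanned a wide range. C02B4.t2, a tyrosine gene in an intron of the nuclear hormone receptor gene nhr-17, reached a pooled signal of 280.7 (ranks 67 in replicate 1 and 60 in replicate 2). T28B4.t1 (phenylalanine) reached 247.2, R01H5.t1 (threonine) 238.6, C02F12.t1 (methionine) 230.8 and F46G11.t2 (proline) 227.4. F28H6.t1 (arginine) reached 213.2. E03E2.t1, a serine gene in an intron of cat-1, the vesicular monoamine transporter gene, reached 203.2 (ranks 125 and 159). F42D1.t1 (cysteine) reached 191.6 and R04A9.t1 (glutamine) 172.8, while the tryptophan gene C03B1.t1, described above, reached 130.9.

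Genes with and without an IDR summit were alike in the length, GC content and sequence patterns of the gene itself. GC content of the gene had a median of 58.3% in both, and length a median of 72 bp in both. The B-box letters GTTCGANNC were found in 50 of 65 genes with an IDR summit (76.9%) and 150 of 211 without (71.1%), and the looser GTTCNANNC in 96.9% with and 97.2% without. An A-box pattern of T, G, A and G at fixed spacing was found in the first 30 bases of 65 of 65 genes with an IDR summit and 209 of 211 without, and a run of 4 T in the 40 bp after the gene in 65 of 65 with and 208 of 211 without. Patterns were sought on the strand of the gene. Every match to the stricter B-box letters is also one to the looser letters. In windows of the same length before protein-coding genes GTTCGANNC occurs in 0.145%, GTTCNANNC in 0.991%, the A-box pattern in 3.49% and the T run in 59.8%.

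The median unique share, the median number of copies, the place in or outside introns and the strand were also similar. The share with an IDR summit differed between genes with and without identical copies. The median share of 50-base words around the gene (200 bp on each side included) that occur at no other place in the genome was 91.3% with an IDR summit and 91.5% without. Some genes without a candidate had far less, down to 8.51%, against a lowest value of 82.0% with an IDR summit. How reads from repeated sequence were placed is not given in the sources used here. An IDR summit was found at 20 of 95 genes in introns of protein-coding genes (21.1%) and 44 of 180 outside them (24.4%), and at 32 of 136 genes on the plus strand and 33 of 140 on the minus strand. Of 12 genes with 2 exons 5 had one. The number of nuclear tRNA genes of the same sequence, the gene itself included, had a median of 11 with an IDR summit and 10 without. Of 57 genes whose sequence occurs in no other nuclear tRNA gene 6 had an IDR summit (10.5%, interval 3.96 to 21.5%). Of 219 genes with identical copies 59 had one (26.9%, 21.2 to 33.3%). These intervals overlap slightly. On the autosomes the numbers were 12 of 86 genes without an identical copy (14.0%) and 53 of 250 with one (21.2%).

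The sequence before the gene differed. The 100 bp before genes with an IDR summit had a median GC content of 46% (interquartile range 42 to 50%), against 40% (35 to 44%) before candidate-only genes and 36% (32 to 40%) before genes with no candidate. The 100 bp after the gene had 29%, 28% and 27% in the same 3 classes. This comparison, its window and the boundaries used with it were chosen after the data were seen. C residues made up most of the difference, with medians of 27 per 100 bp before genes with an IDR summit, 21 before candidate-only genes and 18 before genes with no candidate, while G had 18, 17 and 17.

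The difference lay close to the gene. Between 60 and 40 bp before it mean GC content was 48.5% ± 1.36 (SE over 65 genes) with an IDR summit, 39.5% ± 1.55 in candidate-only genes and 36.5% ± 1.00 with no candidate. Between 160 and 140 bp before it the values were 33.6% ± 1.60, 33.4% ± 1.96 and 34.5% ± 1.17. In the first 20 bp after the gene they were 22.1% ± 0.910, 23.1% ± 1.28 and 21.7% ± 0.810. Autosomal tRNA genes had the same order over the 100 bp before the gene, with medians of 48%, 46% and 39%.

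**Figure D3:**
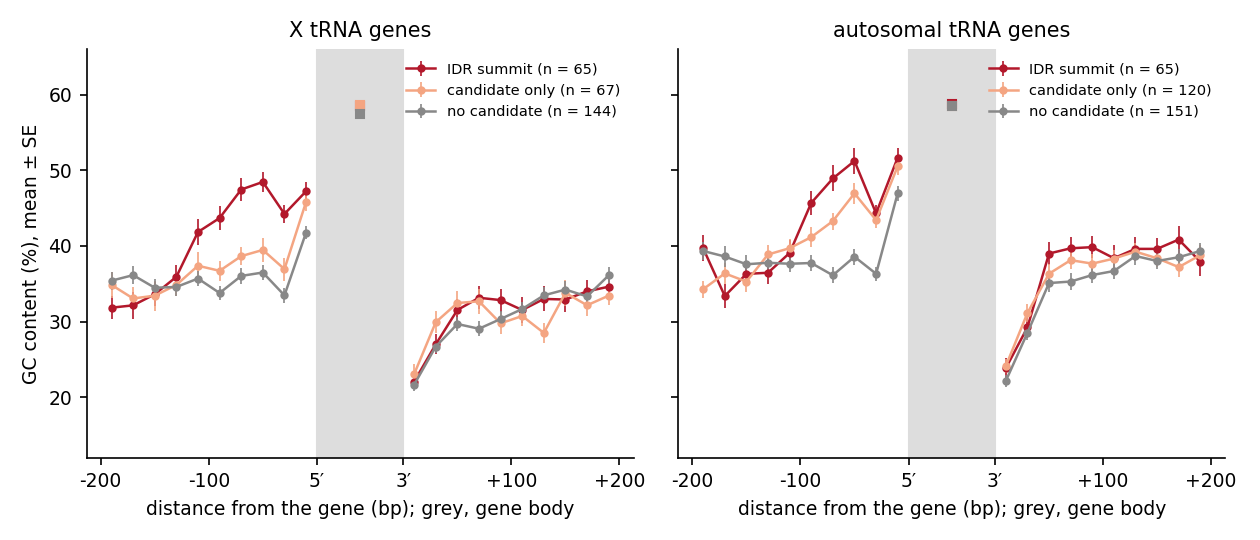
Mean GC content in 20-bp steps (y axis, percent, bars ± SE over genes) by distance before and after the gene (x axis, bp), with the mean of the gene body as squares in the grey band, which is drawn at a fixed width. Left, X; right, autosomes. On X the line of genes with an IDR summit lies above both others from 120 to 20 bp before the gene, and it meets the candidate-only line in the last 20 bp.

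Read the other way, the share of X tRNA genes with an IDR summit went up with GC content before the gene. At up to 30% GC 1 of 37 had one, from 30 to 35% 0 of 51, from 35 to 40% 7 of 68, from 40 to 45% 19 of 55, from 45 to 50% 26 of 46 and above 50% 12 of 19. Together, 38 of 65 genes above 45% (58.5%, interval 45.6 to 70.6%) and 1 of 88 genes at or below 35% (1.14%, 0.0288 to 6.17%) had an IDR summit. On the autosomes the same steps gave 0 of 28, 1 of 39, 5 of 55, 13 of 76, 25 of 81 and 21 of 57. Within the 132 X tRNA genes that had a candidate, signal and GC content before the gene had a Spearman's rho of 0.52 (autosomes 0.31 over 185 genes), and within the 65 genes with an IDR summit rho was 0.26 on X and 0.07 on the autosomes.

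Exceptions at the ends of this order were sought in the values and are named as examples. They are not the only ones, since 15 of 65 genes above 45% GC had no candidate. F59C12.t2, an aspartate gene in an intron, was the gene with an IDR summit and the lowest GC content before it, 30%. Its ranks were 331 and 323 in replicates 1 and 2, and 305 when pooled. Above 50% GC 5 of 19 genes had no pooled candidate: F49E7.t3, C36C9.t2 and Y75D11A.t2 (arginine), D1009.t1 (glutamine) and C31E10.t1 (glycine). Y75D11A.t2 and C31E10.t1 had no region in either replicate. They also stood apart in other ways: Y75D11A.t2 lacks the run of 4 T after the gene and has a unique share of 65.6%, and C31E10.t1 lacks the A-box pattern and has a unique share of 80.4%. D1009.t1 lacks the stricter B-box letters, but so do 76 X tRNA genes in all, of which 15 had an IDR summit. F49E7.t3 and C36C9.t2 hold the stricter B box, the A-box pattern and the T run. Their unique shares were 88.0% and 95.8%. Whether any of these features bears on the missing regions was not tested.

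Base composition at summits was also measured away from tRNA genes. The 101 bp at the summit had a median GC content of 50.5% in the 64 X regions with an IDR call at tRNA genes and 46.5% in the 69 other candidates at them. Away from tRNA genes it was 51.5% in the 29 IDR regions on X and 38.6% in the 4188 other candidates. A higher GC content in IDR regions was therefore present on X outside tRNA genes too. The part of base composition in the recovery of DNA, in sequencing or in the control library was not tested.

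Identical copies of a gene fell on both sides. The 276 genes have 106 distinct sequences, and 33 of these occur at 2 or more places on X, in 203 genes. None of the 33 sets had an IDR summit at every copy, 4 had none, and 29 had copies of both kinds (52 genes with an IDR summit and 140 without). In 28 of the 29 sets the copies with an IDR summit had the higher median GC content before the gene, and in 1 set, of arginine genes, the medians were equal. The difference had a median of 10 percentage points over the 29 sets and ran from 0 to 16.5. The choice to compare within sets was made after the order over all genes had been seen, and the sets come from the same genes.

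**Figure D4:**
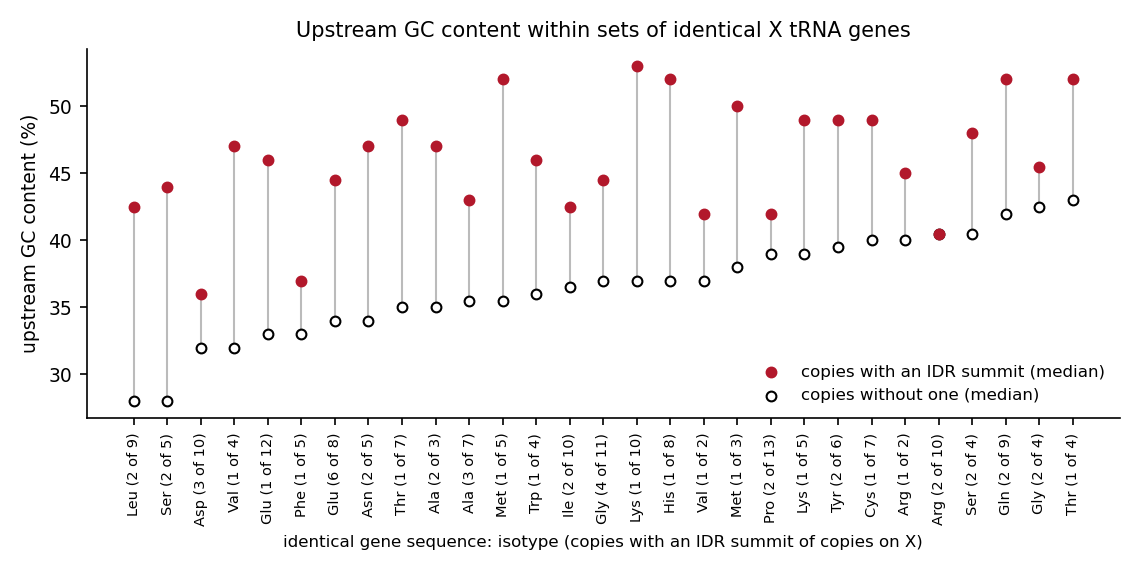
Median GC content of the 100 bp before the gene (y axis, percent) for copies with an IDR summit (filled) and copies without one (open) in each of 29 sets of identical X tRNA genes (x axis, with isotype and number of copies). The filled point is higher in 28 sets and equal in 1 arginine set.

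The largest set is a proline gene of 72 bp with 13 copies on X and 24 in the nuclear genome. Of the 13, 2 had an IDR summit, 6 had any pooled candidate and 7 had none. Its strongest copy, F46G11.t2, had a signal of 123.7 (rank 102) in replicate 1, 103.8 (rank 130) in replicate 2 and 227.4 (rank 105) pooled, and 42% GC before the gene. The weakest copy with a candidate, R04D3.t3, had 35.4 (rank 6524) in replicate 1, no region in replicate 2 and 40.6 (rank 19489) pooled, also with 42% GC before it. In this set medians before the gene were 42% with an IDR summit and 39% without.

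The word CTCTC was frequent before genes with an IDR summit. It was found on the strand of the gene in the 100 bp before 33 of 65 genes with an IDR summit (50.8%, interval 38.1 to 63.4%), 10 of 67 candidate-only genes (14.9%, 7.40 to 25.7%) and 11 of 144 genes with no candidate (7.64%, 3.87 to 13.3%). Counting both strands the numbers were 46, 17 and 18. Of all windows of 100 bp before protein-coding genes 13.0% hold it on the strand of the gene and 17.0% on either strand (14.1% and 18.5% on X). The word was picked after the data were seen, as the one of 1024 words of 5 letters with the largest difference on X, and words of 4 and 6 letters were looked at as well (5376 words in all), so its difference on X is a description of a choice. On the autosomes, which the choice did not use, it was found before 44.6%, 28.3% and 9.93% of the genes of the 3 classes. The difference was not particular to CTCTC, since words that overlap it differed too. On X, CTCTT was found before 44.6%, 17.9% and 11.1% of the 3 classes and TCTCT before 43.1%, 22.4% and 13.2%. TCTCT was found before 56.9%, 35.8% and 17.2% on the autosomes.

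CTCTC is rich in C, and GC content moves with it. Between 40 and 50% GC, 21 of 31 X tRNA genes with the word and 24 of 70 without it had an IDR summit. At up to 40% GC the numbers were 3 of 14 with the word and 5 of 142 without, and above 50% GC 9 of 9 with it and 3 of 10 without. On the autosomes an IDR summit was found at 21 of 48 genes with the word and 17 of 109 without it between 40 and 50% GC. There the numbers above 50% GC were 8 of 19 with it and 13 of 38 without, and at up to 40% GC 0 of 11 with it and 6 of 111 without, so that the order at low GC was the other way round. In the 29 sets of identical copies the word was found before 27 of 52 copies with an IDR summit (51.9%) and 17 of 140 without (12.1%). The X counts by GC content and by set come from the genes on which the word was picked, so they restate that choice in part. In the 33 genes with an IDR summit that have it, the word nearest to the gene ended a median of 48 bp before it (interquartile range 19 to 59 bp). A match is a run of letters and was not shown to be a site.

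The E-box letters of the Snail family were rare at genes with an IDR summit. CAGGTG, on either strand, was found in the 100 bp before 2 of 65 genes with an IDR summit (3.08%, 0.375 to 10.7%), 6 of 67 candidate-only genes (8.96%) and 7 of 144 genes with no candidate (4.86%). In the gene itself the numbers were 2, 1 and 3. Of all windows of 100 bp before protein-coding genes 3.06% hold it. Before autosomal tRNA genes CAGGTG was found in 0 of 65 with an IDR summit and 13 of 120 candidate-only genes (10.8%, 5.90 to 17.8%). It was found before 6 of 151 autosomal genes with no candidate (3.97%).

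Genes that stood alone had IDR summits more often than genes in groups. The distance to the next tRNA gene had a median of 13100 bp for genes with an IDR summit, 2117 bp for candidate-only genes and 488.5 bp for genes with no candidate. An IDR summit was found at 8 of 65 genes with a neighbour within 200 bp, 8 of 70 between 200 and 1000 bp, 11 of 44 between 1000 and 5000 bp, 10 of 32 between 5000 and 20000 bp, and 28 of 65 beyond that. On the autosomes the medians were 24796, 12118.5 and 2988 bp, and the shares at these steps were 4 of 44, 7 of 57, 10 of 45, 8 of 44 and 36 of 146. The size of the difference on X rested in part on 1 library. Genes with an IDR summit had a median 12420 bp above that of all genes without one, and when the strongest regions of 1 replicate took the place of the IDR list this was 5089 bp without replicate 1 and 13313.5 bp without replicate 2. With summits up to 200 bp from the gene it was 6952.5 bp. This comparison, too, was chosen after the data were seen.

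**Figure D5:**
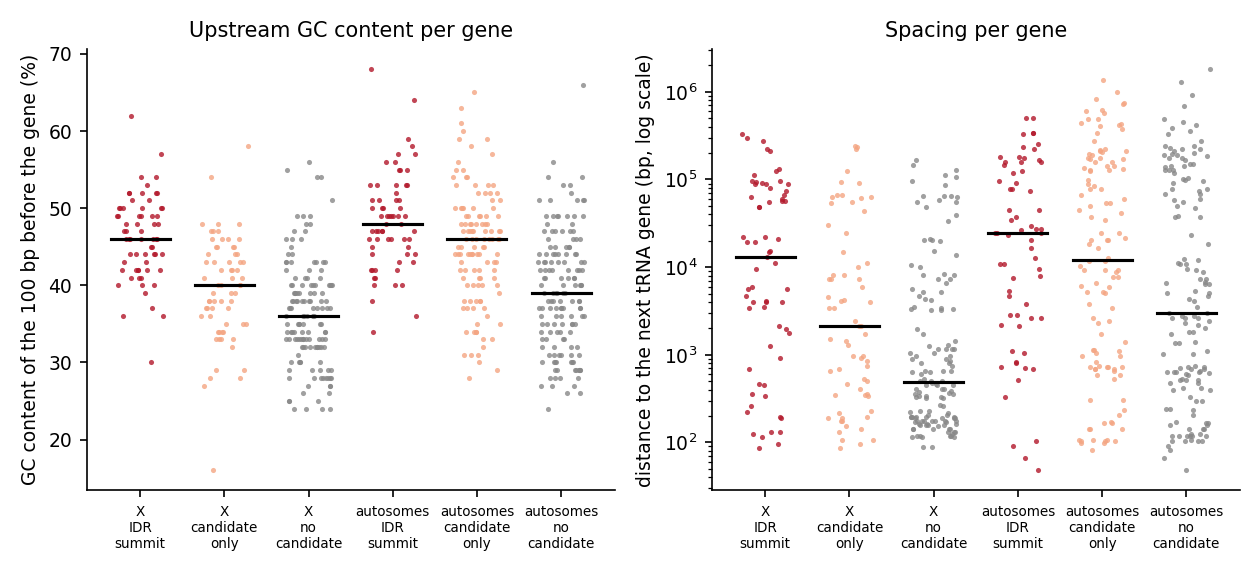
Left, GC content of the 100 bp before each tRNA gene (y axis, percent); right, distance to the next tRNA gene (y axis, bp, log scale), each for the 3 classes on X and on the autosomes (x axis). Points are genes and bars are medians. On X the medians are 46%, 40% and 36% for GC content and 13100, 2117 and 488.5 bp for distance.

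The difference by distance on X lay mainly among genes above 40% GC. Above 40% GC an IDR summit was found at 45 of 76 genes more than 1000 bp from the next tRNA gene (59.2%, interval 47.3 to 70.4%) and 12 of 44 nearer ones (27.3%, 15.0 to 42.8%). At up to 40% GC the numbers were 4 of 65 farther genes (6.15%) and 4 of 91 nearer ones (4.40%). Within sets of identical copies the median distance was longer for copies with an IDR summit in 23 of 29 sets.

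Grouped genes can share a summit, which limits what the lists can show there. No 2 summits on X were closer than 199 bp in any of the 3 candidate lists, so close neighbours could be served by 1 summit. When genes up to 1000 bp apart were joined, 135 genes formed 54 groups, and 15 of these (27.8%) held a gene with an IDR summit, against 49 of the 141 genes that stood alone (34.8%). Any candidate was found in 36 of the 54 groups (66.7%) and at 87 of the 141 lone genes (61.7%). Counted by gene, an IDR summit was found at 16 of the 135 grouped genes (11.9%), so the difference from lone genes was smaller by group than by gene. With a joining distance of 500 bp the shares were nearly equal by group, at 13 of 43 groups (30.2%) and 51 of 168 lone genes (30.4%), and with 2000 bp the shares were 30.5% of groups and 37.4% of lone genes. Only 1 group had more than 1 gene with an IDR summit. It holds the serine genes C53C7.t2 (chrX:13046366-13046447, minus strand) and C53C7.t1 (chrX:13046578-13046659, plus strand), which point away from each other with 130 bp between them and share 1 region with its summit in the gap (pooled signal 174.5, ranks 166 in replicate 1 and 215 in replicate 2). No other pair of X tRNA genes shared an IDR region with its summit within 100 bp of both. Counted by overlap in place of the summit, IDR regions reached 68 X tRNA genes. Of the 144 genes with no candidate 20 were overlapped by a pooled region whose summit lay farther off, 2 of them by an IDR region, and the median distance of these 20 to the next tRNA gene was 277.5 bp.

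Pairs of neighbours could differ. F15G9.t1 (pooled signal 370.6) and F15G9.t2 (113.3, candidate only), both alanine genes in intronic sequence of him-4, lie 86 bp apart and had separate summits. These lie at chrX:9743633 and chrX:9743833, close to the shortest distance between summits on X (199 bp). The second summit lies after F15G9.t2, and its region (chrX:9743605-9744060) overlaps F15G9.t1. Whether the weaker region is separate from the stronger one was not tested. F15G9.t2 ranked 794 in replicate 1 and 179 in replicate 2, and its signal was the highest of the genes without an IDR summit. GC content before the gene was 46% for F15G9.t1 and 41% for F15G9.t2.

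Genes at the edge of the IDR list were close in signal. Just inside were F14B8.t1 (116.0), C48C5.t2 (117.9) and T08A9.t1 (119.2), with 44, 44 and 41% GC before the gene. Just outside were F15G9.t2 (113.3), H06A10.t1 (111.8) and C30E1.t1 (111.7), with 41, 37 and 45%.

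Along X the tRNA genes were densest between 8 and 10 Mb, with 71 genes, of which 10 had an IDR summit (14.1%). Between 12 and 14 Mb 16 of 45 had one (35.6%), between 2 and 4 Mb 7 of 16 (43.8%) and between 16 and 18 Mb 4 of 34 (11.8%). The remaining 2-Mb bins lay between 14.7% and 35.3%.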

How the data were processed

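ChIP-seq was done against the GFP tag of SNAI-1 in 2 biological replicates of 1 group, with replicate numbers from the labels. The tag is eGFP in 1 label field and GFP-FLAG in another. The authors deposited narrowPeak lists on ce11 and ce10, and the ce10 lists were not used. Per the deposited manifests, the inputs were each replicate's alignment and a control for its own list, both replicates for the pooled list, and these lists for the IDR list. Not given in the sources used here: aligner, peak caller, IDR threshold and read placement. The signal value (column 7) and the −log10 q-value (column 9) were taken as deposited, and no filter on either was added. Among genes with an IDR summit the deposited −log10 q ran from 1.73 to 2.47. The 495 IDR regions have signals of at least 114.7.

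Genes came from Ensembl release 115, isotypes and sequence from RefSeq, both WBcel235. Summit position is the start plus column 10. Ranks count from the highest signal in a list. Counts, medians and exact binomial intervals (95%) describe genes, and no test was run, since 1 group of 2 replicates allows no comparison of conditions. The scoring was tested on simulated regions. Python 3.11.15, pandas 2.3.3, scipy 1.17.1 and numpy 2.4.6 were used. Named genes are the 12 strongest, the strongest of each isotype, those nearest the IDR boundary, those with the largest rank ratios, the largest identical set and pairs sharing a region. Members, lists and rules were chosen with earlier results of these data known.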

Additional observations from a re-analysis of the deposited data

How the results depend on the processing

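Of the differences given, that in the B-box share turned round under another pattern and that in the unique share became 0. The others listed here kept their direction. The number of X tRNA genes with an IDR summit, 65, ran from 47 to 70 over other distances, overlap in place of summits, the stronger part of the list and each replicate alone (62 and 63), and was 42 when identical genes were counted as 1. The number with any candidate, 132, ran from 123 to 138 with 1 replicate and fell to 84 when the summit had to lie in the gene. It went up to 151 with summits up to 200 bp away and to 152 by overlap. Median signal, 112.6, was 185.9 with identical genes counted as 1 by their highest value. The share of autosomal tRNA genes with an IDR summit, 19.3%, was 12.2% with the summit in the gene. X minus autosomes, 4.21 percentage points, ran from 3.42 to 7.40 (3.78 to 5.20 with 1 replicate). The B-box share, 76.9% with and 71.1% without an IDR summit, was 96.9% with and 97.2% without under the looser pattern. Unique shares, 91.3% with and 91.5% without, were 88.4% in both with words of 36 bases and 100% in both with words of 100 bases.

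Alternatives to the comparisons added after the data were seen were added then too. GC content before the gene, 9 percentage points higher with an IDR summit than without, was 6 higher against candidate-only genes, 4 higher over 200 bp and 8 to 9.5 higher with 1 replicate. For CTCTC the difference of 40.8 percentage points was 14.4 over 50 bp, 54.2 on either strand and 32.2 to 45.5 with 1 replicate. The difference in median distance to the next tRNA gene, 12420 bp, ran from 5089 to 13313.5 bp with 1 replicate, was 6952.5 bp with summits up to 200 bp away and went up to 18601 bp with the summit in the gene. Of 24 ranks of the 12 strongest genes in single replicates, 18 were within 1.5 times the pooled rank and 6 were not. No paired analysis was possible because the series has 1 group and no test. Depth is unknown, so a gene without a region cannot be told from one below detection.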
